A study of Mus musculus with 6 samples.

Results

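The genes described here encode voltage-gated sodium channels, voltage-gated calcium channels, hyperpolarization-activated cation (HCN) channels, the sodium leak channel and the intracellular calcium release channels. They are 31 of the 33084 genes in the count table, chosen by name for their function, with earlier results of these data known. All 31 were found when matched by symbol to Ensembl identifiers. Of these, 30 had enough counts to be tested among 19403 genes, and Scn7a did not. Forebrain RNA was sequenced in bulk from mouse embryos at embryonic day 15.5, from 3 Dyrk1a+/- samples (heterozygotes, with 1 intact copy of the gene) and 3 wt samples. Dyrk1a encodes a protein kinase that acts on brain growth. The series title calls the allele a full inactivation; the labels give no background strain, no account of which cells carry it, and no litter, and the replicates are described as biological. Nothing further states that each came from a separate embryo, so the p values measure the spread between these samples.

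Voltage-gated sodium channels open on depolarization and carry the rising phase of the action potential; each is a pore-forming alpha subunit joined by small beta subunits. Most voltage-gated calcium channels are built from an alpha1 pore with an intracellular beta subunit and an extracellular alpha2delta subunit. Calcium channels couple electrical activity to transmitter release, gene expression and growth. HCN channels pass a depolarizing current at negative potentials and set rhythm and resting potential, while ryanodine and inositol trisphosphate receptors release calcium from the endoplasmic reticulum. In the embryonic forebrain many of these channels are acquired as neurons leave the cell cycle and mature. Bulk RNA does not show which cells express them.

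Libraries held 18699434 to 25012356 counts in heterozygotes and 25270710 to 32865708 counts in wt. Dyrk1a itself had 148, 147 and 158 counts per 1000000 (CPM, on effective library size) in heterozygotes, against 176, 186 and 160 CPM in wt. The heterozygotes lay below wt without overlap, with a log2 fold change of -0.20 (SE 0.079; edgeR quasi-likelihood test, Benjamini-Hochberg adjusted p = 0.59). Emx1, a transcription factor gene of the dorsal forebrain, was at 26.5 to 34.2 CPM in heterozygotes and 20.2 to 29.0 CPM in wt, and Hoxc8, a gene of the trunk nervous system, reached at most 0.402 CPM in heterozygotes and 0.357 CPM in wt. Heterozygote replicate 2 and wt replicate 3 stood apart from the other 4 libraries on the first principal component and gave 4% and 4.46% of their counts to the small nuclear and nucleolar RNAs 7SK, RNase P and RNase MRP, against 2.57% to 3.01% elsewhere.

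Across the channel genes most members had lower levels in heterozygotes, by small amounts, and none passed the test over all genes. Of 30 tested members 27 had a log2 fold change below 0 and 3 above, with a median of -0.16, whereas 48.8% of all genes tested were below 0, with a median of 0.0048. By edgeR's quasi-likelihood test 0 members had an adjusted p under 0.05, where 0.0103% of all genes did and 0.00515% did in the lower direction, and the lowest adjusted p among members was 0.503. DESeq2 also called 0. At an unadjusted p under 0.05 stood 7 members, 6 lower (Scn2a, Cacna1d, Cacna1e, Itpr1, Cacna1a and Scn3b) and 1 higher (Cacnb3). The background was 7.88% of genes tested, 4.61% lower and 3.27% higher. CPM of the genotypes did not overlap for 9 tested members that were lower and 1 that was higher, against 7.49% and 6.53% of all genes tested.

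**Figure D1:**
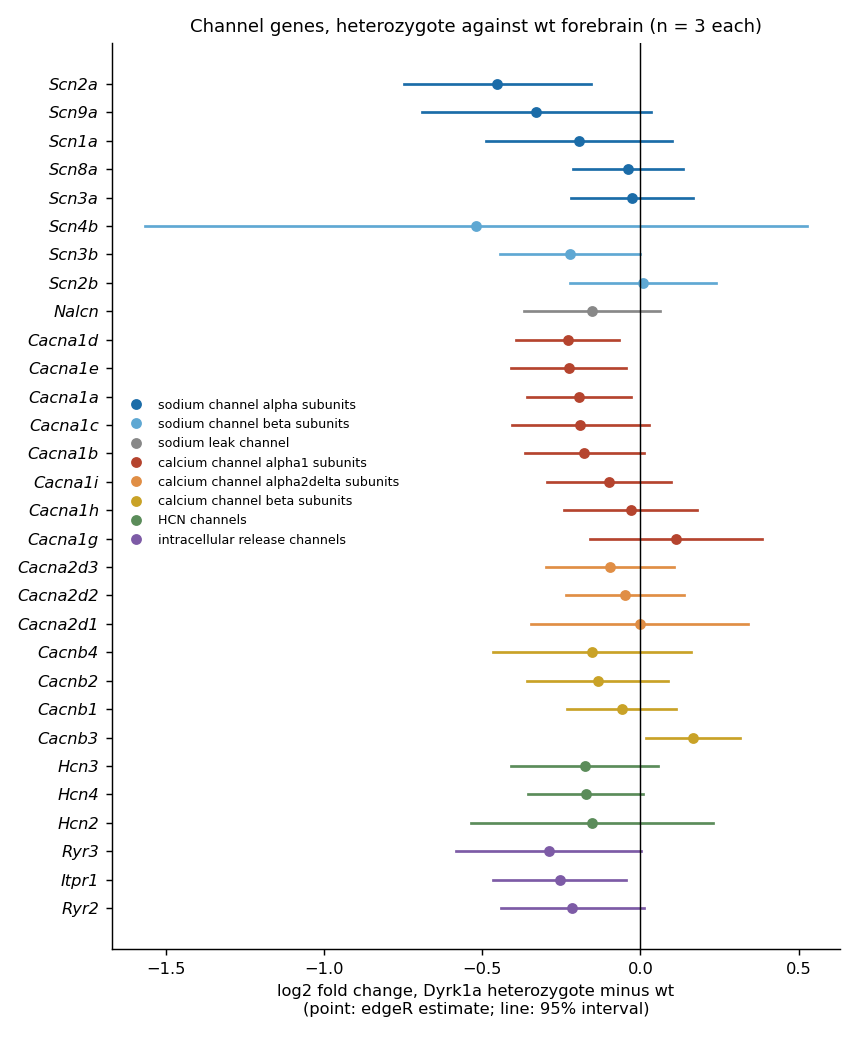
Log2 fold changes of the 30 tested channel genes, heterozygote minus wt, ordered by family, with edgeR 95% intervals (n = 3 per genotype). Points of 27 genes lie left of 0, Scn2a at -0.45 stands farthest left among the abundant genes, and Cacnb3 is the gene whose whole interval lies right of 0.

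Heterozygote replicate 3 had the lowest CPM of the 6 libraries in 17 of 31 members. Wt replicate 1 had the highest in 12. Leaving out heterozygote replicate 3 left 3 members at an unadjusted p under 0.05 (4.25% of all genes tested) and a members' median of -0.11. Leaving out wt replicate 1 also left 3 (4.11% of all genes), and leaving out wt replicate 2 left 4 (6.18%). The count was 11 when heterozygote replicate 2 was dropped (8.92%) and 11 when wt replicate 3 was dropped (10.5%). Between heterozygote replicate 2 and wt replicate 3, the libraries that stood apart, 21 of 30 members were lower with a median log2 CPM difference of -0.047. Within the 4 other libraries 27 of 30 were lower with a median of -0.20. For 22 of the 30 tested members, leaving out 1 library moved the log2 fold change by over 1.5 times or turned its sign.

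Levels of the channels spanned a wide range, compared here as CPM per kilobase of annotated exon. The highest in wt was Scn3b, a sodium channel beta subunit, with 25.2 ± 3.13 CPM per kb in heterozygotes and 29.4 ± 1.20 in wt (SD, n = 3 each). Next in wt came the N-type calcium channel pore Cacna1b, the calcium channel beta subunit Cacnb3, the embryonic sodium channel pore Scn3a, the R-type pore Cacna1e and the T-type pore Cacna1h. Steps between neighbours among these 6 were smaller than the sum of their SDs. Per kb of the longest transcript Cacna1e, at 35.8 CPM per kb in wt, ranked above Cacna1b, at 28.1. In heterozygotes Cacnb3 came first, at 29.2 ± 0.107 CPM per kb, against 26.0 ± 0.917 in wt. At the low end Scn7a had 0.0374 ± 0.0076 CPM per kb in heterozygotes and 0.0745 ± 0.023 in wt, and Scn4b 0.0969 ± 0.068 in heterozygotes and 0.137 ± 0.018 in wt. Of the 30 steps down the wt order, 9 exceeded the sum of the neighbours' SDs, among them those from Cacna1h to Cacna1g and from Hcn2 to Scn4b.

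**Figure D2:**
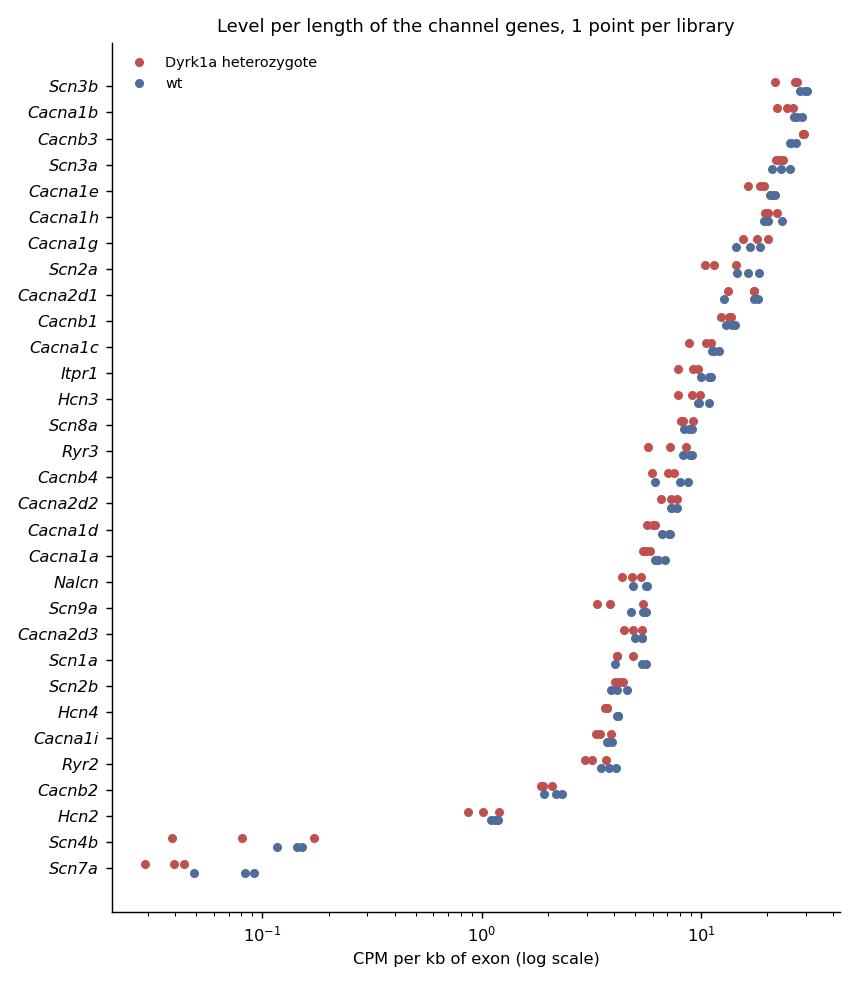
CPM per kb of exon of the 31 channel genes on a log axis, 1 point per library, heterozygotes drawn above wt in each row and genes ordered by the wt mean. Scn3b, Cacna1b and Cacnb3 lead, and Scn4b and Scn7a lie far below the rest.

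Among the 5 tested sodium channel pores, the log2 fold change was farthest from 0 in Scn2a and nearest to 0 in Scn3a. Scn2a encodes the pore that carries sodium current in axons of immature excitatory neurons (ENSMUSG00000075318, GRCm38 chromosome 2, 65620771 to 65767447, plus strand). It had 183, 145 and 133 CPM in heterozygotes, against 235, 209 and 186 CPM in wt. All heterozygotes lay below all wt libraries, heterozygote replicate 1 closest. This came to -0.45 on the log2 scale (SE 0.13, 95% interval -0.75 to -0.16; edgeR unadjusted p = 0.0072, adjusted p = 0.503). An exact 2-sided permutation test on CPM gave p = 0.1, which is as low as 3 against 3 libraries can go. Between the libraries that stood apart the log2 CPM difference was -0.36, and within the 4 others -0.51. Scn3a, the pore that predominates before birth (ENSMUSG00000057182, chromosome 2, 65457118 to 65567627, minus strand), had 294, 284 and 273 CPM in heterozygotes, against 316, 289 and 262 CPM in wt. The genotypes overlapped, with a log2 fold change of -0.027 (SE 0.085, 95% interval -0.22 to 0.17).

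The other tested pores lay between these. Scn9a, the pore best known from peripheral sensory neurons, averaged 53.7 CPM in heterozygotes and 67.4 CPM in wt, with a log2 fold change of -0.33 (SE 0.159), which was -0.55 without heterozygote replicate 1 and -0.19 without heterozygote replicate 2. Scn1a, the pore that inhibitory neurons rely on later in life, averaged 48.8 CPM in heterozygotes and 55.8 CPM in wt (-0.19, SE 0.13). Scn8a, the pore that dominates at mature axon initial segments, was at 128 to 145 CPM in heterozygotes and 132 to 143 CPM in wt (-0.039, SE 0.077). In all 3 the genotypes overlapped and the 95% intervals included 0. Scn7a, a sodium-level sensor of the same family, had 6, 8 and 4 counts in heterozygotes and 20, 17 and 10 counts in wt. It was not tested, and with no low-count filter its log2 fold change was -0.98 (edgeR unadjusted p = 0.0474, adjusted p = 0.79).

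The ratio of Scn2a to Scn3a, in levels per kb, is given as a description, since the pair was picked for the values above. It was 0.608, 0.499 and 0.476 in heterozygotes, against 0.727, 0.707 and 0.696 in wt. The heterozygote ratios lay below all wt ratios, which were close together, and the mean ratio in heterozygotes was 0.743 of the wt mean. As a share of the summed level per kb of the 6 pores, Scn2a made up 23.1% ± 2.03 in heterozygotes and 28.0% ± 0.779 in wt (SD, n = 3 each). Scn3a made up 43.9% ± 1.9 in heterozygotes and 39.4% ± 0.218 in wt, without overlap. In all 33 such shares were computed over the families, and 4 did not overlap between genotypes: those of Scn2a, Scn3a, Scn7a and Cacnb3. Among all genes tested, 14% did not overlap in CPM in either direction, and this count is near that share. The measures are unlike, however. Shares within a family add up to a fixed total, so a lower share of Scn2a raises those of the other pores. The T-type pores entered both with the other alpha1 pores and as a set of their own. Of the words of 50 bases in annotated transcripts, 5.64% of those of Scn2a and 6.49% of those of Scn3a occurred in another member. A read within such a word may match more than 1 gene, and the effect on the counts was not tested.

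**Figure D3:**
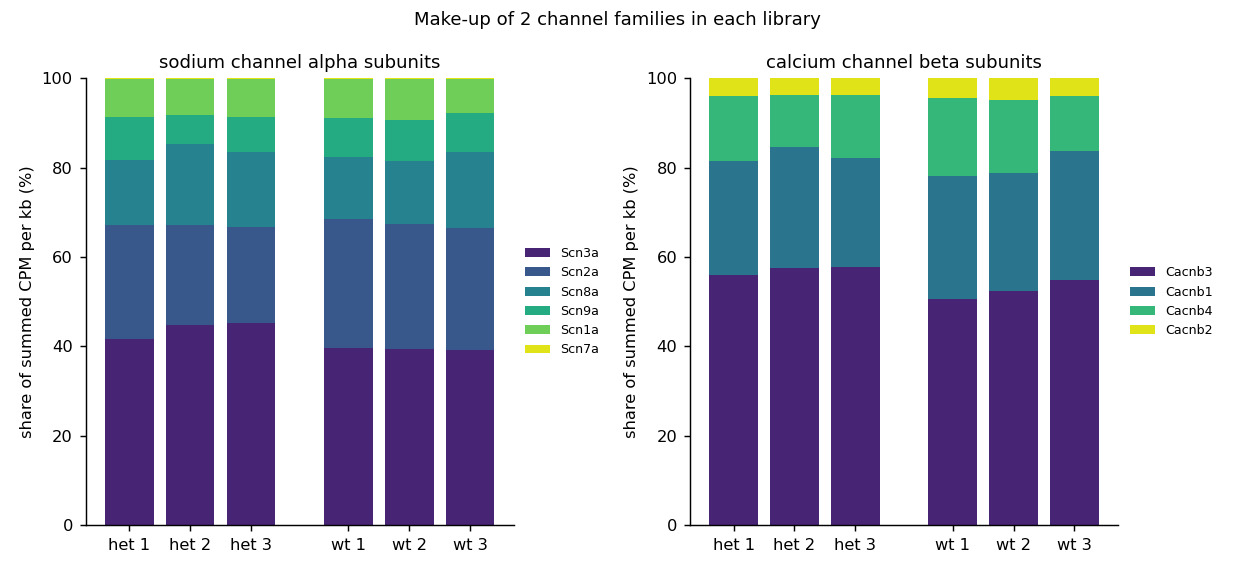
Share of the summed CPM per kb held by each sodium channel alpha subunit (left) and each calcium channel beta subunit (right) in each library, heterozygotes left of wt. Scn2a holds 21.5% to 25.4% in heterozygotes and 27.3% to 28.8% in wt, and Cacnb3 holds 56.1% to 57.8% in heterozygotes and 50.6% to 54.8% in wt.

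Scn3a, Scn2a, Scn1a, Scn9a and Scn7a lie in this order on chromosome 2, from 65457118 to 66784914, a cluster spanning 1.33 Mb. Scn2a ends at 65767447 and Scn1a starts at 66270778, and genes between them were not looked at. Genes of the cluster had the unlike differences given above. RefSeq start windows were found for 23 of the 31 members. The 250 bases before the start are shown for the 3 cluster genes with the largest differences among tested members of the cluster and for Cacna1b, the calcium channel pore with the highest CPM per kb of annotated exon; in these the RefSeq and GENCODE starts lie within 5 bases. Sequences are RefSeq, GRCm38.p6, written 5′ to 3′ on the gene's strand, from chr2:65620519-65620768 (plus) for Scn2a, chr2:66440838-66441087 (minus) for Scn1a, chr2:66634963-66635212 (minus) for Scn9a and chr2:24763153-24763402 (minus) for Cacna1b. Capitals mark CCAAT and GGGCGG on either strand.
Scn2a: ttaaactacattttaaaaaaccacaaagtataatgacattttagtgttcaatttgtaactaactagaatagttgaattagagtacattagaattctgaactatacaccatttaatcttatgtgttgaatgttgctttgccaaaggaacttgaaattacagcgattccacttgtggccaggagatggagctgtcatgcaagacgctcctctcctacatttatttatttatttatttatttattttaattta
Scn1a: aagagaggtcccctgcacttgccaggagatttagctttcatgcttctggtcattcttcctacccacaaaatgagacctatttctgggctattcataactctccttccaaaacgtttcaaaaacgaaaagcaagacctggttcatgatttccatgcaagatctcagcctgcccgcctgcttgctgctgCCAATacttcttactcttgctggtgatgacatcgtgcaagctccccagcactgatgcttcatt
Scn9a: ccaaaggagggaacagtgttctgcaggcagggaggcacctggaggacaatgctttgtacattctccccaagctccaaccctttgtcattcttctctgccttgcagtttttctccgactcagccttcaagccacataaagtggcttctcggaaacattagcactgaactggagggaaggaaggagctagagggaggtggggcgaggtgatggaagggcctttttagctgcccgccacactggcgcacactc
Cacna1b: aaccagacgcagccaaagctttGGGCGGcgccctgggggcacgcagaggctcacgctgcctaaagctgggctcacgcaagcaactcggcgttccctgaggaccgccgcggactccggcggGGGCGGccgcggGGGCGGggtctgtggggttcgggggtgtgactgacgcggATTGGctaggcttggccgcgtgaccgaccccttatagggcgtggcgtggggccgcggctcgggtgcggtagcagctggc
The windows differ widely in composition: GC content is 29.6% for Scn2a, 46.8% for Scn1a, 54.4% for Scn9a and 72% for Cacna1b, with 2, 4, 5 and 29 CG dinucleotides. Over all 33 member windows median GC was 62.4%, against 52.4% over 32817 mouse windows of the same length. GGGCGG, searched on both strands, was in 39.4% of member windows and 32.7% of all windows, CCAAT in 21.2% and 33.8%, and TATAAA in 6.06% and 12.4%. The left and right parts of the element bound by the neuronal repressor REST, searched as CAGCACC and GGACAGC, were each in 3.03% of member windows (Nalcn and Cacnb1), against 5.73% and 5.28% of all windows. A match is a match of letters only.

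Of the sodium channel beta subunits, which anchor and tune the pores, Scn3b was lower and Scn2b overlapped between genotypes. Scn3b (ENSMUSG00000049281, chromosome 9, 40269217 to 40291618) had 146, 149 and 118 CPM in heterozygotes, against 166, 163 and 153 CPM in wt. The groups did not overlap, with heterozygote replicate 3 well below the other 5 libraries. The log2 fold change was -0.22 (SE 0.098; edgeR unadjusted p = 0.0487, adjusted p = 0.631), and it was -0.13 without that library, against a log2 CPM difference of -0.04 between the libraries that stood apart and -0.33 in the other 4. Scn2b was at 18.8 to 20.6 CPM in heterozygotes and 18.0 to 21.4 CPM in wt. Scn4b, abundant in striatal neurons after birth, had 88 counts over all libraries and wide overlap, at 0.193 to 0.853 CPM in heterozygotes and 0.579 to 0.753 CPM in wt. Nalcn, the sodium leak pore that sets resting excitability, averaged 71.1 CPM in heterozygotes and 79.0 CPM in wt, with overlap and a log2 fold change of -0.15 (SE 0.095).

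Of the 8 calcium channel pores 7 were lower in heterozygotes, and 5 of these did not overlap between genotypes. Over all genes tested 48.8% were below 0, and 7.49% were lower without overlap. The median log2 fold change of the 8 pores was -0.18, and it was -0.11 without heterozygote replicate 3. Cacna1d, an L-type pore active at relatively negative potentials (ENSMUSG00000015968, chromosome 14, 30039939 to 30491455), had 76.1, 77.3 and 71.8 CPM in heterozygotes, against 90.3, 90.7 and 83.3 CPM in wt. Its log2 fold change was -0.23 (SE 0.072; edgeR unadjusted p = 0.0107, adjusted p = 0.517). The R-type pore Cacna1e (ENSMUSG00000004110, chromosome 1, 154390731 to 154884501), with the most counts of all members, had 488, 469 and 413 CPM in heterozygotes, against 546, 536 and 521 CPM in wt. For both genes every heterozygote lay below every wt library, and for Cacna1e the wt libraries were close together. Its log2 fold change was -0.23 (SE 0.08; edgeR unadjusted p = 0.0205, adjusted p = 0.554). Cacna1a, the P/Q-type pore of presynaptic terminals (ENSMUSG00000034656, chromosome 8, 84388440 to 84640246), had 62.1, 66.9 and 64.3 CPM in heterozygotes, against 70.6, 72.7 and 78.0 CPM in wt. The log2 fold change was -0.20 (SE 0.073; edgeR unadjusted p = 0.0251, adjusted p = 0.579), and the difference was of like size between the libraries that stood apart (-0.22) and within the other 4 (-0.18).

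Cacna1b and Cacna1c also did not overlap, by narrower margins. Cacna1b, the N-type pore that triggers transmitter release, had 245, 261 and 220 CPM in heterozygotes, against 286, 263 and 273 CPM in wt (log2 fold change -0.18, SE 0.083). Cacna1c, the L-type pore that signals to the nucleus, had 223, 235 and 186 CPM in heterozygotes, against 255, 241 and 238 CPM in wt (-0.19, SE 0.096). For both genes the highest heterozygote, replicate 2, was next to the lowest wt library. Their edgeR unadjusted p values were 0.0615 for Cacna1b and 0.0802 for Cacna1c. Between the libraries that stood apart the log2 CPM difference was -0.062 for Cacna1b and -0.015 for Cacna1c, and within the 4 others it was -0.24 and -0.29.

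Of the calcium channel pores the T-type ones, which open near resting potential, differed least. Cacna1g averaged 181 CPM in heterozygotes and 167 CPM in wt, with a log2 fold change of 0.11 (SE 0.12); besides it, Cacnb3 and Scn2b were the members above 0. Cacna1h averaged 201 CPM in heterozygotes and 205 CPM in wt (-0.031, SE 0.092), and Cacna1i 34.9 CPM in heterozygotes and 37.5 CPM in wt (-0.10, SE 0.086). In all 3 the genotypes overlapped, and the 95% intervals ran from -0.16 to 0.39, -0.24 to 0.18 and -0.29 to 0.095. The interval of Cacna1g leaves room for a difference of either sign.

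**Figure D4:**
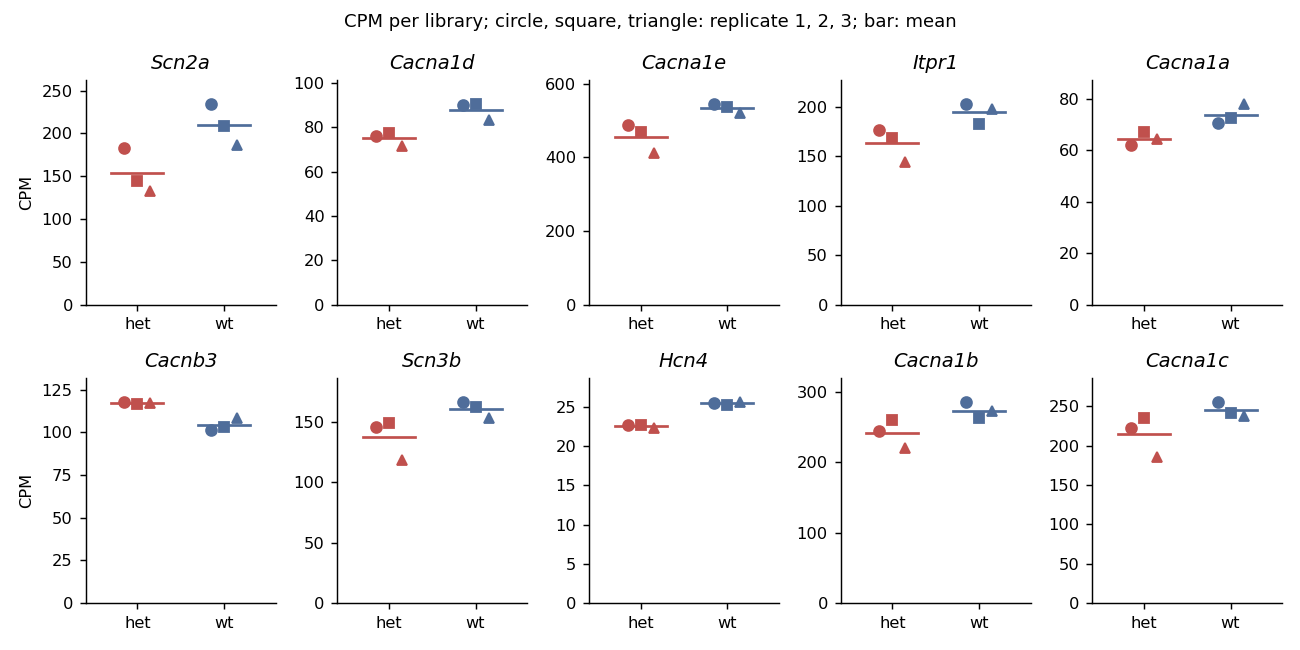
CPM in each library for the 10 tested channel genes at an unadjusted p under 0.05 or with no overlap between genotypes, heterozygotes left of wt, with bars at the means and axes from 0. In 9 genes all heterozygotes lie below all wt libraries, and for Cacnb3 they lie above.

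Of the calcium channel beta subunits 3 lay below 0 on the log2 scale and Cacnb3 above it. Cacnb3, a beta subunit that brings pores to the membrane (ENSMUSG00000003352, chromosome 15, 98630840 to 98644529), had 118, 117 and 117 CPM in heterozygotes, against 101, 103 and 108 CPM in wt. All heterozygotes lay above all wt libraries, and they were nearly equal. The difference was 0.17 on the log2 scale (SE 0.066, 95% interval from 0.019 up to 0.32; edgeR unadjusted p = 0.0315, adjusted p = 0.591), with 0.11 between the libraries that stood apart and 0.20 within the 4 others. Its share of the summed beta subunit level per kb was 57.1% ± 0.934 in heterozygotes and 52.6% ± 2.06 in wt, without overlap (SD, n = 3 each). The other beta subunits were at or below the wt level. Cacnb4 averaged 61.5 CPM in heterozygotes and 68.4 CPM in wt (log2 fold change -0.15, SE 0.138), Cacnb2 25.8 CPM in heterozygotes and 28.3 CPM in wt (-0.13, SE 0.098), and Cacnb1 59.4 CPM in heterozygotes and 61.9 CPM in wt (-0.059, SE 0.076), each with overlap.

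Among the alpha2delta subunits, which raise the number of channels at the surface and include the targets of gabapentin, Cacna2d1 was the most abundant. It had 216, 165 and 216 CPM in heterozygotes, against 215, 225 and 157 CPM in wt. The low value of each genotype was that of the library that stood apart, and the log2 fold change was -0.0021 (SE 0.151), with a 95% interval from -0.34 to 0.34. Cacna2d2 averaged 57.3 CPM in heterozygotes and 59.3 CPM in wt (-0.048, SE 0.082) and Cacna2d3 42.7 CPM in heterozygotes and 45.7 CPM in wt (-0.096, SE 0.089).

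The 3 HCN channels in the set were lower, with log2 fold changes of -0.18 for Hcn3 (SE 0.103), -0.17 for Hcn4 and -0.15 for Hcn2 (SE 0.169). Without heterozygote replicate 3 these were -0.092 for Hcn3, -0.17 for Hcn4 and -0.052 for Hcn2. The 95% intervals of all 3 genes included 0. Hcn3, the highest per kb of these, had 37.6, 41.2 and 32.5 CPM in heterozygotes, against 40.1, 40.5 and 45.3 CPM in wt, with overlap. Hcn4, the slow isoform known from cardiac pacemaker cells (ENSMUSG00000032338, chromosome 9, 58823412 to 58863175), had 22.7, 22.8 and 22.3 CPM in heterozygotes, against 25.5, 25.3 and 25.6 CPM in wt. Replicates of either genotype, at 418 to 836 counts per library, lay within 1 CPM of each other and the groups were apart. The SE of the fit allows for more spread than these replicates show. The log2 fold change of Hcn4 was -0.17 (SE 0.08; edgeR unadjusted p = 0.0591, adjusted p = 0.656), and it was -0.17 between the libraries that stood apart and -0.18 within the 4 others. Hcn2, at 2.77 to 3.82 CPM in heterozygotes and 3.53 to 3.79 CPM in wt, overlapped.

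The 3 intracellular release channels had a median log2 fold change of -0.26, which was -0.16 without heterozygote replicate 3. Itpr1, the inositol trisphosphate receptor of neurons (ENSMUSG00000030102, chromosome 6, 108213096 to 108551109), had 177, 169 and 144 CPM in heterozygotes, against 203, 183 and 198 CPM in wt. The groups did not overlap, and the log2 fold change was -0.26 (SE 0.093; edgeR unadjusted p = 0.0225, adjusted p = 0.559). Ryr3, the ryanodine receptor of the developing brain and other tissues, averaged 136 CPM in heterozygotes and 166 CPM in wt, with overlap. Its log2 fold change was -0.29 (SE 0.129; edgeR unadjusted p = 0.0519), and it was -0.16 without heterozygote replicate 3 and -0.44 without heterozygote replicate 2. Ryr2, the ryanodine receptor of heart and neurons, averaged 94.0 CPM in heterozygotes and 109 CPM in wt (-0.22, SE 0.1). Aven, a gene on the opposite strand that overlaps 916 exonic bases of Ryr3, had 681 counts over all libraries, against 23081 for Ryr3, and whether counting used strand is not stated. Of 8 genes of skeletal and heart muscle the myogenic factor Myog had 2 counts over all libraries, and the sum of the 8 was 17.0 to 21.3 CPM in heterozygotes and 22.9 to 25.3 CPM in wt, most of it Ttn. Their part in the ryanodine receptor values was not tested.

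Most genes that bind, anchor or act beside these channels were lower as well. Of 64 tested genes in a list of channel partners (other subunits, anchoring proteins, calcium pumps and exchangers, and store-operated channels) 47 lay below 0 and 17 above it on the log2 scale, and their median was -0.12. Over all genes tested 48.8% lay below 0. In edgeR 0 partners passed over all genes. At an unadjusted p under 0.05 stood 13, all lower, against 4.61% of all genes lower at that level. Among those of lowest p was the ryanodine receptor gene Ryr1, with 30.0, 35.2 and 29.2 CPM in heterozygotes, against 40.5, 39.1 and 41.3 CPM in wt (log2 fold change -0.36, SE 0.092; edgeR adjusted p = 0.483). All heterozygotes lay below all wt libraries. Also among them were the leak channel partner Unc80 (-0.23), Cacng5 (-0.46), the sodium channel binding protein Fgf14 (-0.29) and Caln1 (-0.65).

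Markers of neurons and progenitors differed between the genotypes alongside the channels. The 17 neuron markers summed to 8427 to 8840 CPM in heterozygotes and 9185 to 9733 CPM in wt, with 14 of 17 lower and a median of -0.11 on the log2 scale; none of the 17 was at 0 in any library. Neurofilament light chain Nefl (-0.28) and the vesicle calcium sensor Syt1 (-0.26) were among the 6 at an unadjusted p under 0.05, all lower. Over all genes tested 4.61% were lower at that level, and 48.8% were below 0. Among the neuron markers Rbfox3 (0.0063) and Elavl3 (0.074) were near 0. The 18 cycling progenitor markers summed to 2144 to 2472 CPM in heterozygotes and 1878 to 2121 CPM in wt, with 16 of 18 higher and a median of 0.29. At an unadjusted p under 0.05 in edgeR stood 12 of the 18, all higher, against 3.27% of all genes tested. In bulk RNA, fewer cells of a type and less RNA per cell cannot be told apart. For GABAergic neurons 5 of 10 markers were lower, at 435 to 473 CPM summed in heterozygotes and 453 to 465 CPM in wt. Of these 2 were lower at an unadjusted p under 0.05 in edgeR, and none was higher. Markers of oligodendrocyte precursors and early glia summed to 405 to 437 CPM in heterozygotes and 475 to 481 CPM in wt, with 8 of 9 tested lower. Their median was -0.37, and 6 stood at an unadjusted p under 0.05 in edgeR, all lower. Those of meninges, mural cells and endothelium summed to 467 to 487 CPM in heterozygotes and 525 to 554 CPM in wt, with 11 of 14 lower and a median of -0.13. In edgeR 3 of the 14 stood at an unadjusted p under 0.05, all lower. Of these 1 passed the threshold over all genes (edgeR adjusted p = 0.0238).

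Set against the neuron markers, the channel genes as a sum were nearly level. The 31 members summed to 3503, 3506 and 3165 CPM in heterozygotes, against 3875, 3725 and 3659 CPM in wt. Divided by the summed neuron markers of the same library, this was 0.396, 0.398 and 0.376 in heterozygotes, against 0.398, 0.398 and 0.398 in wt. Heterozygote replicate 3 was thus the library that stood below the rest. Scaled in this way, 19 of 30 tested members lay below the wt mean and 11 above it (median log2 difference -0.055), and the genotypes did not overlap for Cacna1d and Cacna1e, which were lower, and Cacnb3, which was higher. Over all genes tested the same scaling left 3.24% lower and 17.4% higher without overlap. Cacna1e was at 55.2, 53.3 and 49.0 CPM per 1000 CPM of neuron markers in heterozygotes, against 56.1, 57.3 and 56.8 in wt (exact 2-sided permutation p = 0.1). Cacnb3 was at 13.3, 13.3 and 13.9 in heterozygotes, against 10.4, 11.0 and 11.8 in wt (exact permutation p = 0.1). With 3 against 3 libraries any gene without overlap reaches that p in this test. The p values of Cacna1e and Cacnb3 thus add nothing to their lack of overlap. Scn2a was at 20.7, 16.5 and 15.8 in heterozygotes, against 24.1, 22.3 and 20.3 in wt, so that heterozygote replicate 1 overlapped with wt replicate 3 (exact permutation p = 0.2). This scaling was chosen after the data were seen, and Syt1, Snap25 and other markers are themselves genes of maturing neurons.

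**Figure D5:**
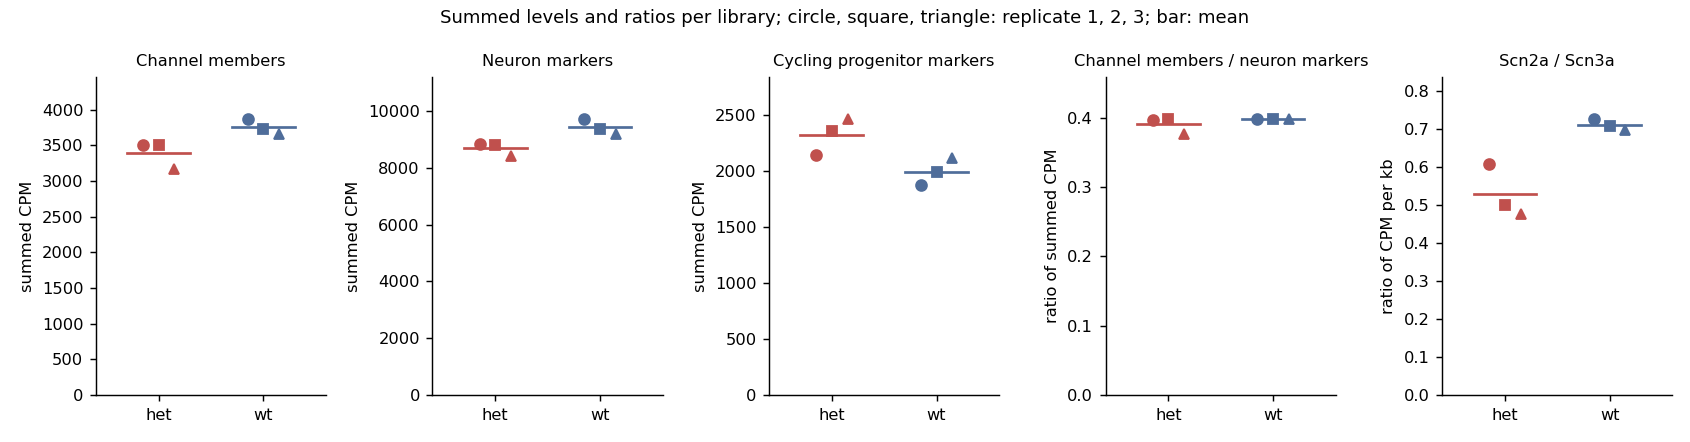
Per library, from left to right: summed CPM of the channel genes, of neuron markers and of cycling progenitor markers, the ratio of channel genes to neuron markers, and the ratio of Scn2a to Scn3a in CPM per kb, with heterozygotes left of wt, bars at the means and axes from 0. The channel to neuron marker ratio is 0.376 to 0.398 in heterozygotes and 0.398 in each wt library, and the Scn2a to Scn3a ratio is 0.476 to 0.608 in heterozygotes and 0.696 to 0.727 in wt.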

How the data were processed

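The authors deposited raw counts per Ensembl gene, 1 column per library, for 3 heterozygote and 3 wt forebrain samples, grouped by the sample titles. Per the submitters' processing notes, the tools were bcl2fastq 2.17.1.14, HISAT2, SAMtools 1.9 and HTSeq 0.9.1 with GRCm38/mm10. Per the labels' protocols a stranded total-RNA kit with ribosomal depletion was used, while the molecule is given as polyA RNA. The annotation release, and whether counting used strand, were not given in the sources used here. Symbols, positions and exon lengths came from GENCODE M21 (32888 identifiers matched, 196 did not), and start windows from RefSeq.

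Counts were fitted in R 4.3.3 with edgeR 4.0.16 (filterByExpr, TMM factors 0.9944 to 1.003, quasi-likelihood test, genotype as the only term, Benjamini-Hochberg over 19403 genes, threshold 0.05); the script was tested on simulated data. Log2 fold changes are heterozygote minus wt. DESeq2 1.42.0 and other settings were run as alternatives. Single values were compared by exact 2-sided permutation of 6 libraries; reads are not independent molecules.

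Members and lists were chosen with earlier results of these data known. Library values are given for members at an unadjusted p under 0.05, those without overlap and the highest per kb of each family with several members. The partners of lowest p are named, 6 by the rule, of which 1 is not reported here.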

Additional observations from a re-analysis of the deposited data

How the results depend on the processing

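In all 16 alternatives, an adjusted p under 0.1 among them, 0 channel members passed the threshold. Genes past it numbered 2 in all genes tested, 27 with DESeq2, 4 with no low-count filter, 6 when the 2 libraries that stood apart had their own term, 6 in the other 4 libraries alone, and 0 to 5 with 1 library left out. Members at an unadjusted p under 0.05 numbered 7 (7.88% of all genes tested), 12 with no low-count filter (6.24%), 15 with the term for the pair (15.7%), 15 in the other 4 libraries (12.9%), and 3 to 11 with 1 library left out (4.11% to 10.5%). The cause of these shifts was not tested. The median log2 fold change of the members was -0.16 and ran from -0.18 to -0.11 with 1 library left out; relative to the summed neuron markers, a scaling added after the data were seen, it was -0.055. The median wt level per length was 7.63 CPM per kb over the union of exons and 10.7 over the longest transcript.

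With replicate number as a block 0 genes passed, and 7 members were at an unadjusted p under 0.05; same-numbered samples did not deviate together (correlations 0.201, -0.325 and -0.165), so the numbers were not taken as pairs.

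Apart from the scaling to neuron markers, after which 11 of 30 members lay above the wt mean, signs in the refits turned only in members near 0. This does not hold for the difference between the libraries that stood apart. There Scn1a (0.026) and Hcn2 (0.010) were among the members above 0, against -0.19 and -0.15 in the main fit. Cacna2d1 was at 0.0018 with DESeq2 size factors, 0.0039 with DESeq2, 0.0045 with the replicate block, 0.0045 with the term for the pair, 0.0035 in thinned counts (added after the data were seen) and -0.15 to 0.12 with 1 library left out. Scn2b was at -0.0028 with no low-count filter, -0.014 in thinned counts and -0.050 to 0.080 with 1 library left out. With 1 library left out Scn3a ran from -0.093 to 0.043, Cacna1h from -0.087 to 0.054 and Cacna2d2 from -0.10 to 0.016. Depth limits Scn7a and Scn4b, with under 100 counts each.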
